A study of Mus musculus with 4 samples.

Results

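Retinaldehyde dehydrogenases and the proteins that carry retinoids were followed across kidneys of diabetic and nondiabetic mice, with and without removal of the other kidney. The 8 genes were Aldh1a1, Aldh1a2, Aldh1a3, Aldh1a7, Rbp4, Rdh10, Stra6 and Crabp2, and every probe set that the platform annotation gives to 1 of them was taken, which made 11 of the 45101 probe sets on the array and 8 of 18193 named genes. The genes were chosen with their signals on these arrays known, so their values below are a description and carry no test. Aldh1a1 and Aldh1a7 had their lowest signal in nondiabetic sham mice and higher signals with either diabetes (2.22-fold and 2.89-fold) or uninephrectomy (2.04-fold and 2.12-fold). Both were highest where the conditions were combined, at 4.15-fold and 8.14-fold. These folds are ratios of signal, while the counts of genes below use log2 values with an offset. Aldh1a2 stood higher only on the array of diabetic uninephrectomised mice, Rbp4 and Rdh10 were within 2-fold in all 4 comparisons, and Aldh1a3, Stra6 and Crabp2 were too dim to follow.

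All mice were females on the FVB/NJ background, killed at 4.5 months of age, 10 weeks after an operation done at 2 months. Diabetic mice carried the OVE26 transgene, a calmodulin gene under an insulin promoter that damages pancreatic beta cells, and nondiabetic mice were control littermates without it. The operation was uninephrectomy, the removal of a kidney, used to accelerate kidney disease, or a sham procedure. RNA of 4 mice was pooled for each of the 4 combinations and hybridised to 1 Affymetrix 3' expression array (100 ng of the pool), so there is no measure of the spread between animals and every difference lacks a replicate check. The question was how diabetes alters renal gene expression and how the loss of a kidney changes this.

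Retinol, vitamin A, circulates bound to RBP4, is filtered in the kidney and is taken back up by the proximal tubule through the receptor megalin. In cells it is oxidised to retinaldehyde, for which RDH10 is a main enzyme, and retinaldehyde dehydrogenases of the ALDH1A family oxidise this irreversibly to retinoic acid. Retinoic acid is handed by CRABP2 to nuclear retinoic acid receptors, which switch genes on at paired response elements, and is destroyed by CYP26 enzymes. In the developing kidney retinoic acid made in the stroma guides branching of the ureteric bud.

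Array medians lay between 106.8 and 119.3 signal units, and the trimmed mean of every array was 500. Xist signals between 12775 and 14743 matched the labelled sex, and the kidney markers were present, with Umod between 36353 and 48279 and Lrp2 between 14839 and 22011. The 3 probe sets for 18S ribosomal RNA had a geometric mean that, relative to the nondiabetic sham array, was 1.02-fold after uninephrectomy alone, 1.32-fold with diabetes alone and 1.88-fold with both. The 18 probe sets for hybridisation spikes, which are added in equal amounts, stood at 1.23-fold, 1.24-fold and 0.918-fold in the same order. The ratio of 3' to 5' control signal of Actb was 2.78 on the nondiabetic sham array. It was 3.49 after uninephrectomy alone, 3.72 with diabetes alone and 3.38 with both. For Gapdh the ratios were 0.897, 0.993, 1.01 and 0.906 in that order. Their part in the differences below was not tested. Differences are given as log2(signal + 26.4), where the offset is the 20th percentile of all signals, so the difference of a dim gene is understated. A gene counted as expressed when the mean log2 value of its brightest probe set reached 7.06, about 107 signal units, which left 11197 genes. Where a gene has 2 expressed probe sets (4918 genes), the median gap between their differences was 0.21 to 0.22 log2 units, with a 95th percentile of 0.78 to 0.82. This is disagreement between probe sets, whose source was not tested, and says nothing of the spread between pools or arrays. Signals of different probe sets are not comparable as levels, so each gene is compared only with itself.

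Aldh1a1 encodes the cytosolic retinaldehyde dehydrogenase and Aldh1a7 is its rodent paralog, for which little activity toward retinaldehyde is known. The genes are next to each other on chromosome 19 and lie on opposite strands. Their promoters are shown because these genes had the same order of arrays. The RefSeq table of build GRCm38.p6 held starts for 5 of the 8 members. Below are the 250 bases before the downstream start of Aldh1a1 (chr19:20601718-20601967, plus strand) and before the start of Aldh1a7 (chr19:20727557-20727806, minus strand), 5′ to 3′, with the longest run that is identical in both in capitals. It has 65 bases and lies from 94 to 30 bases before the start in each.
Aldh1a1: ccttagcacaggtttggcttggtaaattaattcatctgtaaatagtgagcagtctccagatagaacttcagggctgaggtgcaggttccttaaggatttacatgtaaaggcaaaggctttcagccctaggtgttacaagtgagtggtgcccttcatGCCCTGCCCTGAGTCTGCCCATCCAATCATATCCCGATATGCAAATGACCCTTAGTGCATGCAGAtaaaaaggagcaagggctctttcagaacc
Aldh1a7: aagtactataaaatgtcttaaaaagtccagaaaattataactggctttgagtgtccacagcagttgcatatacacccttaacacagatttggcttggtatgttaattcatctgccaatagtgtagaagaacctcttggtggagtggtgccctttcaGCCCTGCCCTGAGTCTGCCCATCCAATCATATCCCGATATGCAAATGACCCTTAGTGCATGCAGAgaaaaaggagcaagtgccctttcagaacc

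In a global alignment the windows agreed at 176 positions, with 56 mismatches and 36 gap positions (65.7% identity). The window before the start of Aldh1a2 (chr9:71215539-71215788, plus strand), the retinaldehyde dehydrogenase gene with another pattern, is given for comparison, with the octamer ATGCAAAT in capitals.
Aldh1a2: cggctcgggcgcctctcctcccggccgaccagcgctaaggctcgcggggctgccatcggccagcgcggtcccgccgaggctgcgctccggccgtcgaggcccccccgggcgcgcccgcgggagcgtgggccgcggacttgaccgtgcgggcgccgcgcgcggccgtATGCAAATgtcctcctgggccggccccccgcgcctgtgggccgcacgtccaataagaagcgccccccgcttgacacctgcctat
It has 77.6% G and C, against 46.4% and 43.2% in the Aldh1a1 and Aldh1a7 windows, and shared no identical run longer than 10 bases with either.

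Motifs were searched on both strands of the 250 bases. The octamer ATGCAAAT, chosen after the sequences were seen, occurred once in each of the 3 windows and in 1.60% of the 32851 windows of the table. It lay 56 bases before the start of Aldh1a1 and of Aldh1a7, inside the shared run, and 84 before that of Aldh1a2. Being in the shared run, the matches in Aldh1a1 and Aldh1a7 are not separate. The CCAAT box occurred 72 bases before both the Aldh1a1 and the Aldh1a7 start, inside the shared run, once more in Aldh1a7 at 137 and in Aldh1a2 at 36, and in 33.8% of all windows. The letters AGGTCA, repeated in retinoic acid response elements, are not in any of these 3 windows and are in 14.0% of all. Only these exact letters were searched, and variants of them were not. Direct repeats of these letters with 5 or with 2 bases between them are each in 3 of the 32851 windows and not in these. TATAAA is in 12.4% of all windows and, of these 3, only in Aldh1a7, at 244. Variants of TATAAA were not searched either, so a similar stretch in the other windows would be missed. The core of the antioxidant response element, TGACNNNGC, is in the Aldh1a2 window only (10.2% of all windows). Such matches are letters in a window, not binding sites.

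The Aldh1a1 signal (probe set 1416468_at) without diabetes was 626.9 after sham surgery and 1277.9 after uninephrectomy, and with diabetes it was 1391.9 and 2601.2. The nondiabetic sham array was thus lowest and the diabetic uninephrectomy array highest, while the arrays with either condition alone lay 0.12 log2 units apart. Diabetic mice were higher by 1.12 log2 units after the sham operation and by 1.01 after uninephrectomy. Uninephrectomised mice were higher by 0.997 in the nondiabetic and by 0.89 in the diabetic state. The ratios of the single conditions over nondiabetic sham multiply to an expected 2837 in diabetic uninephrectomised mice, close to the measured 2601, and the difference between the effects was -0.11.

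Aldh1a7 followed the same order with a wider span. Its signal (1418601_at) was 306.4 after sham surgery and 649 after uninephrectomy without diabetes, and 885 and 2492.6 with it. The highest array is 8.14-fold the nondiabetic sham signal, against 4.15-fold for Aldh1a1. Diabetic mice were higher by 1.45 log2 units after sham surgery and by 1.90 after uninephrectomy. Uninephrectomised mice were higher by 1.02 without and by 1.47 with diabetes. Multiplying the separate ratios gives 1875, below the measured 2493, and the difference between the effects was 0.45. The effect of diabetes on Aldh1a7 exceeded that on Aldh1a1 by 0.34 log2 units in sham and by 0.89 in uninephrectomised mice, and the effect of uninephrectomy by 0.02 in nondiabetic and 0.58 in diabetic mice. Of these gaps only 0.89 exceeded the 95th percentile of gaps between 2 probe sets of 1 gene, 0.78 to 0.82. That percentile holds no spread between pools or arrays, so exceeding it is not a test. Each gene has 1 probe set, and the sequences of the probes were not used here. Because these are close paralogs, their signals are uncertain, and how much of each signal comes from the other's transcript was not tested.

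**Figure D1:**
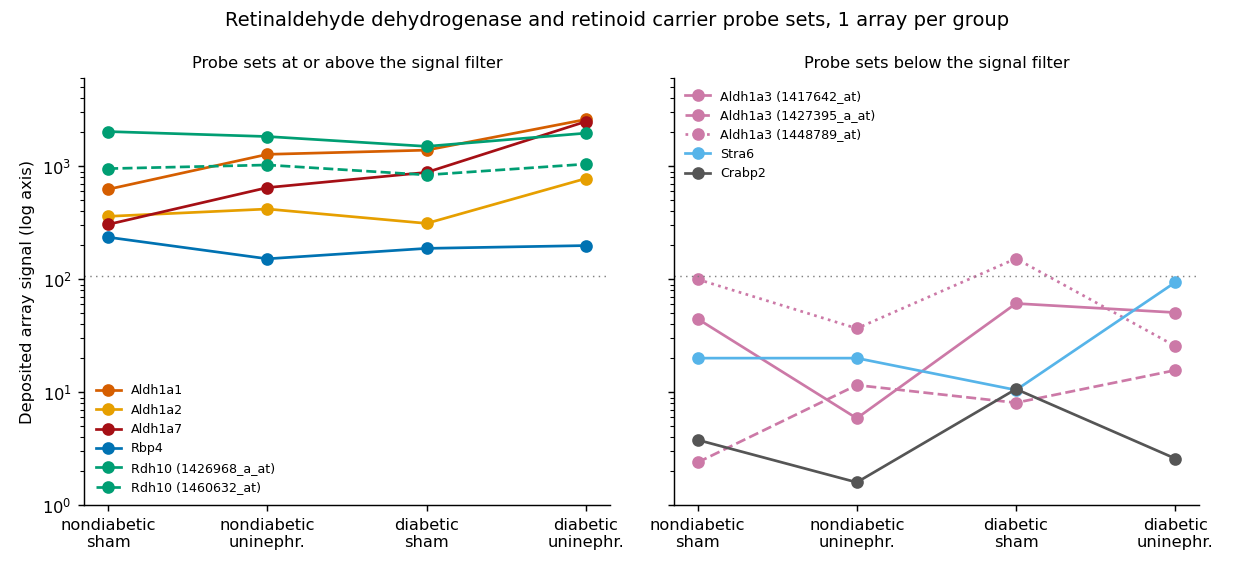
Deposited array signal (log axis) of the 11 probe sets of the 8 genes on the 4 arrays, 1 per group, with lines joining the values of 1 probe set and a dotted line at the signal filter of about 107. Aldh1a1 (627 to 2601) and Aldh1a7 (306 to 2493) have their highest signal on the diabetic uninephrectomy array, Aldh1a2 is highest there too, and the probe sets of Aldh1a3, Stra6 and Crabp2 in the right panel have means below the filter.

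Aldh1a2 encodes the retinaldehyde dehydrogenase that supplies most retinoic acid in the embryo. Its signal (1422789_at) was 361.2 after sham surgery and 419.5 after uninephrectomy without diabetes, and 313 and 780.7 with it. Only the last array stood apart. Uninephrectomy gave a difference of 0.20 log2 units in nondiabetic and of 1.25 in diabetic mice. Diabetes gave -0.19 in sham and 0.86 in uninephrectomised mice. The separate ratios multiply to an expected 364, against the measured 781, and the difference between the effects was 1.05. Among expressed genes 5.06% had effects at least 2-fold apart, 2.49% in this direction and 2.57% in the other.

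Aldh1a3, a further retinaldehyde dehydrogenase, has 3 probe sets, all with a mean below the filter. The brightest, 1448789_at, gave 100.2 (sham) and 36.8 (uninephrectomy) without diabetes, and 152.8 and 25.7 with it. It was lower on both uninephrectomy arrays, and its highest signal was the only one of the 5 dim member probe sets to exceed 107. The probe set 1417642_at gave 44.8, 5.9, 61.2 and 50.9 on the arrays in that order and 1427395_a_at gave 2.4, 11.6, 8.1 and 15.7. The 3 probe sets did not share an order of the arrays, and no fold difference is given.

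Rdh10, which oxidises retinol to retinaldehyde, has 2 expressed probe sets. The probe set 1426968_a_at gave 2032.7 (sham) and 1836.9 (uninephrectomy) without diabetes, and 1503.4 and 1967.2 with it. The probe set 1460632_at gave 955.3, 1029.1, 840.3 and 1047.4. Both were lowest in diabetic sham mice. Diabetic minus nondiabetic sham was -0.43 and -0.18 log2 units, and diabetic uninephrectomy minus diabetic sham was 0.38 and 0.31. The effect of uninephrectomy in nondiabetic mice was -0.14 by the first and 0.10 by the second probe set, so its sign is not settled.

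Rbp4, the carrier of retinol in blood, had signals (1426225_at) of 236.1 after sham surgery and 152.1 after uninephrectomy without diabetes, and 188.1 and 199.2 with it. The difference with uninephrectomy was -0.56 log2 units in nondiabetic and 0.07 in diabetic mice, and the difference with diabetes was -0.29 in sham and 0.34 in uninephrectomised mice. Adipocytes and hepatocytes also make Rbp4. The summed signal of 6 matched adipocyte markers (4 of them expressed) was 14568 and 5405 without diabetes (sham, then uninephrectomy) and 26450 and 13266 with it. Rbp4 and this sum were both lowest on the nondiabetic uninephrectomy array, but the sum was highest in diabetic sham and Rbp4 in nondiabetic sham mice. Of 3 matched hepatocyte markers, Alb was expressed, with signals from 203.3 to 651.2, highest where Rbp4 was lowest. The part of these cells in the Rbp4 signal was not tested.

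Stra6, the membrane receptor that takes retinol from RBP4, had signals (1422723_at) of 20.1 on both nondiabetic arrays, and in diabetic mice of 10.5 after sham surgery and 94.2 after uninephrectomy. It stood highest on the array on which Aldh1a2 was highest, but did not reach 107 there. The probe set of Crabp2, 1451191_at, whose protein carries retinoic acid to its receptors, gave 3.8, 1.6, 10.7 and 2.6 with the nondiabetic arrays first. At most 10.6% of the probe sets of an array lay at or below the Crabp2 signal. Neither gene is described further.

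Among the 5 expressed members, of which the lowest signal on any array was 152.1, Aldh1a1 and Aldh1a7 were at least 2-fold higher in diabetic mice in both arms. In comparison, 0.786% of all expressed genes were 2-fold higher after sham surgery (1.23% in either direction) and 2.14% after uninephrectomy (3.17%). With uninephrectomy, Aldh1a7 was 2-fold higher in nondiabetic mice (0.661% of all expressed genes, 1.18% in either direction), and Aldh1a7 and Aldh1a2 in diabetic mice (1.48%, and 2.14% in either direction). None was 2-fold lower (0.447%, 1.03%, 0.518% and 0.661% of all expressed genes in the same order). Aldh1a1 with uninephrectomy in nondiabetic mice, 2.04-fold by ratio of signal, was 0.997 log2 units with the offset and so not counted. Several of these values lie near 2-fold: Aldh1a1 with diabetes after uninephrectomy was 0.97 with quantile normalisation of the arrays, and Aldh1a7 with uninephrectomy in nondiabetic mice was 0.89 when each array was centred on its median. The members were picked on these signals, so nothing follows from the shares. Aldh1a1 and Aldh1a7 were also at least 1.5-fold higher in both arms of diabetes (1.11% of expressed genes, 1.76% in either direction) and in both arms of uninephrectomy (0.42%, and 0.75% in either direction). They are 2 of the 13 genes, 0.116% of the expressed, that were 1.5-fold higher in all 4 comparisons, which share arrays with each other. The other 11 include Ccnb2, Uhrf1, Mki67 and Cd44, named because they reappear below.

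**Figure D2:**
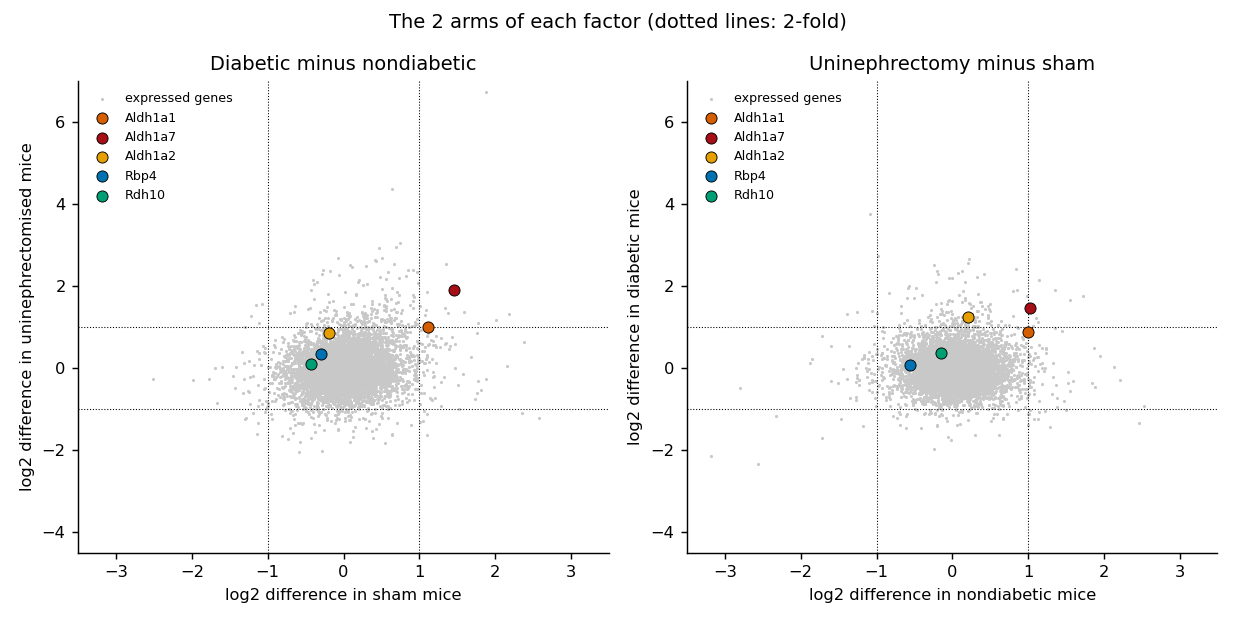
Log2 difference of every expressed gene (grey, 11197 genes) in the 2 arms of diabetes (left) and of uninephrectomy (right), with the 5 expressed members coloured and dotted lines at 2-fold. Aldh1a7 lies at 1.45 and 1.90 for diabetes and Aldh1a1 at 1.12 and 1.01, while Aldh1a2, Rbp4 and Rdh10 lie between -0.43 and -0.19 for diabetes in sham mice.

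The expressed genes most like a member were taken as the 3 with the smallest Euclidean distance between log2 values over the 4 arrays, each gene centred on its own mean. For Aldh1a1 they were Kif23 (distance 0.28), Ccnb2 (0.29) and Uhrf1 (0.32), which are expressed in dividing cells. For Aldh1a7 they were Cd44, a hyaluronan receptor raised in injured tubules (0.36), Uhrf1 (0.44) and the proliferation marker Mki67 (0.46). Aldh1a1 itself lay at 0.74 from Aldh1a7, with 12 expressed genes nearer. For Aldh1a2 they were Glipr1 (0.08), Olfm4 (0.08) and Basp1 (0.12). Olfm4 had signals of 428.6 and 499.9 without diabetes and 356.6 and 860.9 with it. The genes nearest to Aldh1a1 and Aldh1a7 were dim on the nondiabetic sham array, where Kif23, Ccnb2, Uhrf1, Cd44 and Mki67 read between 42.6 and 69.4. They pass the filter by their mean, through the brighter arrays. The offset of 26.4 narrows their span, so these distances depend on it. Uhrf1 read 48.1 in nondiabetic sham and 368.4 in diabetic uninephrectomised mice. The order of the 4 arrays that Aldh1a1 and Aldh1a7 have was shared by 609 of the 11197 expressed genes, 5.44%.

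Genes beside the Aldh1a1 and Aldh1a7 pair on chromosome 19 differed from it. Anxa1, the nearest expressed gene on the side of Aldh1a1, was 0.28 and 1.30 higher with diabetes in sham and uninephrectomised mice, and -0.25 and 0.76 apart with uninephrectomy in nondiabetic and diabetic mice. Zfand5, the nearest expressed gene on the other side, lay between -0.07 and 0.11 in all 4 comparisons. Tmc1 between it and Aldh1a7 was not expressed.

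Sums of marker genes for other cells and for injury are given for the same arrays. Summed over 5 tubular injury genes (Havcr1, Lcn2, Krt20, Vcam1 and Cd44; 4 expressed), the signal was 818.2 and 666.4 without diabetes (sham, then uninephrectomy) and 1110 and 8738 with it. The last array was highest for this sum, as for Aldh1a1, Aldh1a7 and Aldh1a2, but in nondiabetic mice it was lower after uninephrectomy, where Aldh1a1 and Aldh1a7 were higher. Cd44, which belongs to this list, was 0.80 higher there. The 5 stromal and pericyte genes, all expressed, summed to 5128, 4544, 7212 and 12818 in the same order. Within that list Col1a1 read 72.4, 97.3, 86.8 and 502.2, whereas Pdgfra read 1081.2, 698, 1283.6 and 893.9 and was -0.51 apart with uninephrectomy in diabetic mice. The 6 proximal tubule markers summed to 78998, 83409, 79974 and 58996. Ribosomal 18S RNA had the same order of arrays as Aldh1a1. After uninephrectomy alone it was 1.02-fold of nondiabetic sham, where Aldh1a1 was 2.04-fold. The part of any of these in the member genes was not tested. The adrenal cortex, next to the kidney, is rich in Aldh1a1. Of its 6 markers only Star was expressed (94.5 to 161.1), and the enzyme genes Cyp11a1, Cyp11b1, Cyp11b2 and Cyp21a1 stayed at or under 125, and the list summed to 348.1 and 541.2 without diabetes and 411.5 and 395.6 with it, highest after uninephrectomy alone. In whole kidney, more cells of a type and more RNA per cell cannot be told apart.

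**Figure D3:**
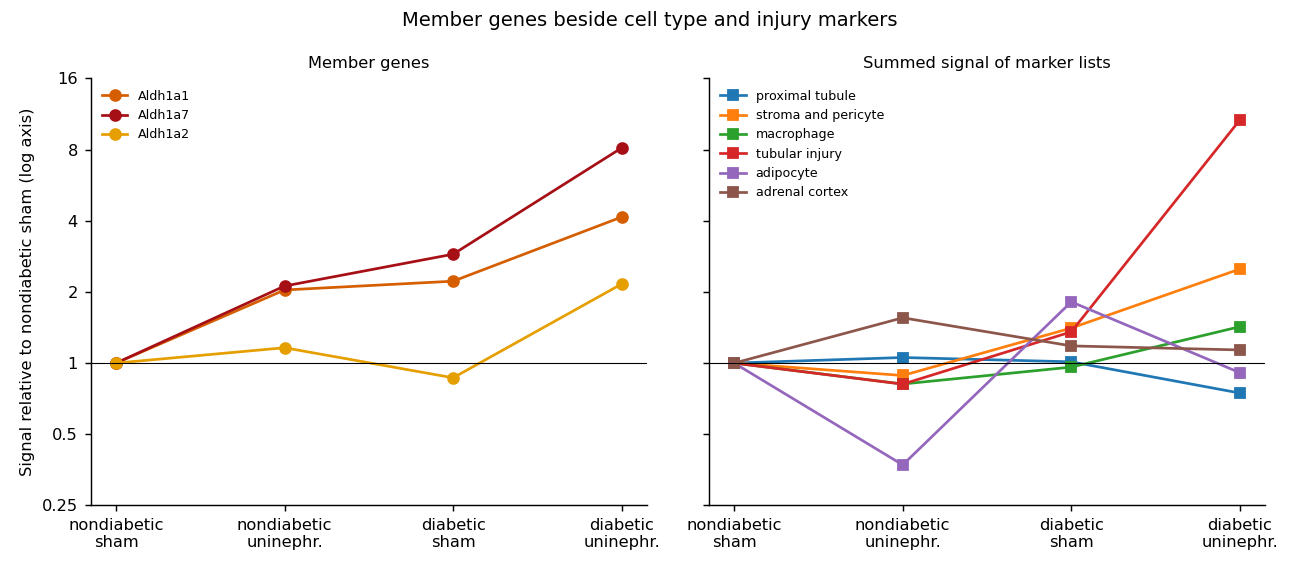
Signal relative to the nondiabetic sham array (log axis) of Aldh1a1, Aldh1a7 and Aldh1a2 (left) and of the summed signal of 6 marker lists (right) on the 4 arrays, 1 per group, with lines joining the values of 1 gene or list. Aldh1a7 reaches 8.14 and Aldh1a1 4.15 on the diabetic uninephrectomy array, where the tubular injury sum is 8738 against 818.2 in nondiabetic sham mice, and the adrenal cortex sum is highest after uninephrectomy alone, at 541.2 against 348.1.

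The rest of the retinoid pathway was read from 8 lists with 87 genes, of which 78 were matched to a probe set with 1 symbol and 56 were expressed. The list of other aldehyde dehydrogenases, 12 of the 56, holds genes outside the retinoid pathway. With diabetes 1 was 2-fold higher and 1 lower in sham mice (3.57% of the 56, against 1.23% of all expressed genes), and 1 and 1 in uninephrectomised mice (3.57% against 3.17%). With uninephrectomy 0 were 2-fold apart in nondiabetic mice (1.18% of all expressed genes), and 2 were higher and 1 lower in diabetic mice (5.36% against 2.14%). Each share rests on at most 3 genes. Aldh18a1, of the aldehyde dehydrogenase list, was the 1 higher with diabetes after uninephrectomy and 1 of the 2 higher with uninephrectomy in diabetic mice. The median difference of the 56 was -0.01, -0.15, 0.01 and -0.12 log2 units, against 0.01, -0.01, 0.00 and -0.02 over all expressed genes. In both arms of diabetes 0 were 1.5-fold higher and 1, Egr1, was lower (0.652% of expressed genes), and in both arms of uninephrectomy 0 were higher and 1, the lipase gene Pnpla2, was lower (0.33%).

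Among genes of retinol carriage and uptake, 4 of 8 matched genes were expressed. Stra6l, which encodes the RBP4 receptor RBPR2, gave 344.1 (sham) and 337 (uninephrectomy) without diabetes, and 284.8 and 605.7 with it, lowest and highest on the same arrays as Aldh1a2. It was 1.02 log2 units higher with uninephrectomy in diabetic mice and -0.03 apart in nondiabetic mice. Lrp2 and Cubn, the megalin and cubilin genes of tubular reuptake, were -0.47 and -0.35 apart with diabetes in uninephrectomised mice and -0.21 and -0.03 in sham mice. The proximal tubule sum, to which both belong, was also lower with diabetes in uninephrectomised mice (58996 against 83409) but not in sham mice (79974 against 78998). Rbp7, a retinol binding protein of fat and endothelium, was below the filter by its mean and read 45.9 and 43.6 without diabetes and 227.8 and 156.2 with it.

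Of 7 expressed genes of retinyl ester formation and hydrolysis, Ces1d, a carboxylesterase, was -1.06 log2 units apart with diabetes in uninephrectomised mice. Its signals by the brightest probe set were 6669 and 13043 without diabetes (sham, then uninephrectomy) and 6920 and 6236 with it, and the high array was nondiabetic uninephrectomy. The other probe sets gave -1.42 and 0.16, so the value depends on the probe set. Lpl, the lipoprotein lipase gene, had differences of -0.52 and -0.49 with diabetes and of -0.48 and -0.45 with uninephrectomy. Scarb1, which takes up carotenoids, belongs to 3 expressed carotenoid genes, all under 2-fold, and gave 271.2 and 345.6 without diabetes and 351.1 and 359.9 with it. The list of 13 expressed retinol and retinaldehyde oxidoreductases held no 2-fold difference in any comparison. Over all expressed genes 1.18% to 3.17% were 2-fold apart in a comparison. The lack of such genes in this and the carotenoid list is thus not read as stability. Adh5 lay between 0.05 and 0.10, and Dhrs3, which reduces retinaldehyde back to retinol, was -0.22 and -0.76 apart with diabetes in sham and uninephrectomised mice.

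Receptors and binding proteins, with 9 of 12 matched genes expressed, also had none at 2-fold (1.18% to 3.17% of all expressed genes per comparison). Fabp5, which carries retinoic acid to PPARD, was 0.32 and 0.73 higher with diabetes in sham and uninephrectomised mice. Rarb, a receptor that retinoic acid induces, gave 482.5 and 335.4 without diabetes and 539.5 and 364.8 with it, and was lower after uninephrectomy in both states (-0.49 and -0.53). By the brightest of its 3 probe sets, Rxra gave 673.6 and 833.7 without diabetes and 876.6 and 480.2 with it. The difference with diabetes was 0.37 in sham mice and -0.76 after uninephrectomy. Rara was not expressed by its probe set. Among list genes, Lrp2, Cubn, Pnpla2, Lpl, Dhrs3, Rarb, Rxra, Rara, Tgm2, Aldh2, Aldh8a1 and Aldh3b1 were chosen after their values were seen.

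In retinoic acid breakdown Cyp26b1 gave 205.5 (sham) and 244.2 (uninephrectomy) without diabetes and 457.5 and 212.8 with it, and only the diabetic sham array was high. It was 1.06 higher with diabetes in sham mice and -1.02 apart with uninephrectomy in diabetic mice. Cyp26a1 did not pass the filter (25.3, 173.9, 85.4 and 107.4, nondiabetic arrays first). Among 10 expressed genes known to respond to retinoic acid, Cyp26b1 was the 1 that was 2-fold higher with diabetes in sham mice and Egr1 the 1 that was 2-fold lower (-1.13, and -0.93 after uninephrectomy). The list medians were 0.11 and -0.05 in these arms and -0.02 and -0.23 with uninephrectomy. No other expressed gene of this list was 2-fold apart in the 4 comparisons (1.18% to 3.17% of all expressed genes per comparison). Whether retinoic acid had a part in the Cyp26b1 and Egr1 differences was not tested. Over all lists, 7 genes below the filter had log2 values 2-fold apart in some comparison, with signals from 6.8 to 227.8, and no fold is given for them. They are Rbp7 and Cyp26a1, the retinol dehydrogenase gene Rdh1, the cytochrome gene Cyp2c39, and Stra8, Ret and Ucp1 among the genes known to respond to retinoic acid.

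The other aldehyde dehydrogenases, 12 of 15 expressed, included 1 gene, Aldh3b1, with the order of arrays seen for Aldh1a1 and Aldh1a7. Over all pathway lists 3 of 56 had it, the others being Scarb1 and Tgm2. This share (5.36%) is close to that of all expressed genes (5.44%). The median difference of the 12 with diabetes was 0.10 log2 units in sham and -0.36 in uninephrectomised mice, and with uninephrectomy 0.19 in nondiabetic and -0.24 in diabetic mice. Aldh2, the mitochondrial enzyme of acetaldehyde, gave 6594 and 7132 without diabetes and 6856 and 5731 with it. Aldh8a1, which can oxidise a cis form of retinaldehyde, was -0.17 and -0.46 apart with diabetes. Aldh3b1 gave 89.3 and 168.6 without diabetes and 180.7 and 204.9 with it, and was 0.84 and 0.25 higher with diabetes. Aldh18a1, an enzyme of proline synthesis, was the only one at 2-fold, 1.45 with diabetes after uninephrectomy and 1.01 with uninephrectomy in diabetic mice. Its other expressed probe set gave 0.63 and 0.29. Over all expressed genes 3.17% and 2.14% were 2-fold apart in these 2 comparisons.

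**Figure D4:**
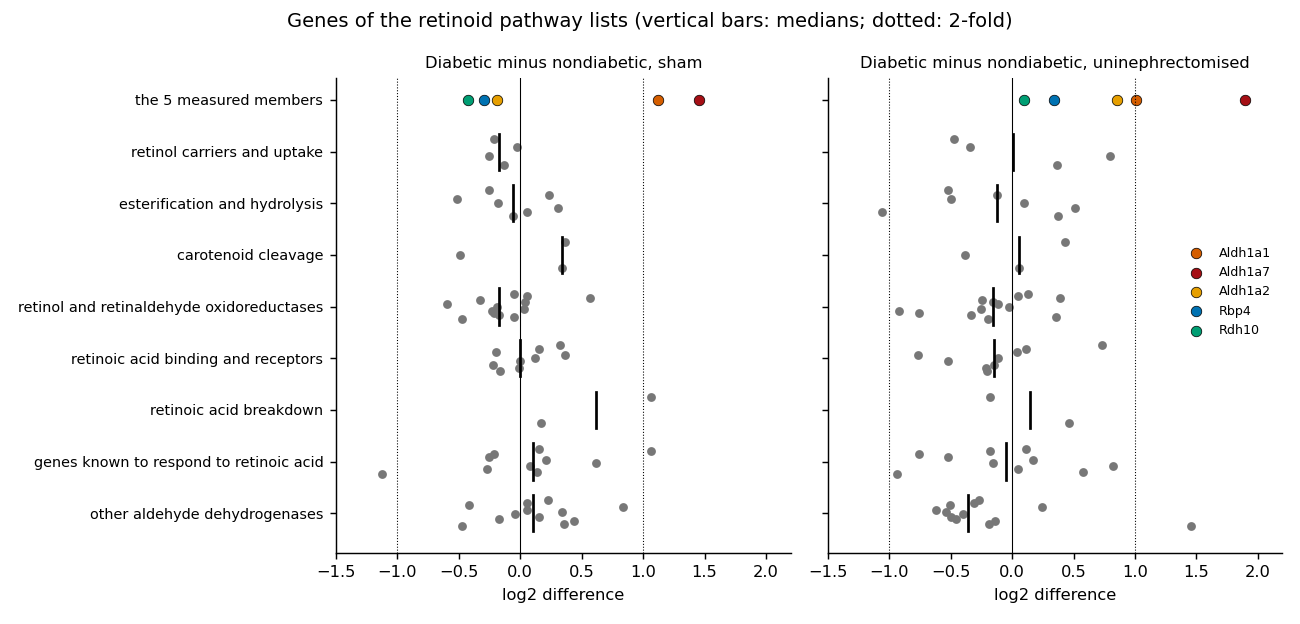
Log2 difference between diabetic and nondiabetic mice in the sham (left) and uninephrectomised (right) arm for the 5 expressed members (top line, coloured) and for each expressed gene of the 8 lists (grey), with bars at the list medians and dotted lines at 2-fold. The list of other aldehyde dehydrogenases holds genes outside the retinoid pathway. Most list genes lie within 2-fold in both arms, and Aldh18a1 (1.45) and Ces1d (-1.06) are the only ones past it on the right.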

How the data were processed

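RNA pooled from 4 mice per group was measured on 1 array for each of 4 groups. The table deposited by the authors holds linear intensity values per probe set, already summarised and scaled to a common level. The software is not given in the sources used here, nor any background correction, and scaling was read from equal trimmed means. The members and lists were chosen with earlier results of these data known.

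Of 45037 probe sets that are not controls, 34945 have 1 symbol in the platform annotation, 932 have several and 9160 are unnamed here. Entrez numbers matched 34741 of the 34945 in a RefSeq gene table of GRCm38.p6 and changed 0 symbols. Where a gene has several probe sets, the one of highest mean stands for it. Values were set as log2(intensity + 26.4), without further normalisation, in Python 3.11.15 with pandas 2.3.3 and numpy 2.4.6. Each array is 1 sample, so no test was made, and the number of arrays limits precision. The 4 differences between arrays were each set beside the share of all expressed genes past the same fold.

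Genes named are all members, each list gene at least 2-fold apart in a comparison or else the brightest of its list, and the 3 nearest genes of each expressed member that spans 2-fold over the arrays. Other list genes, the neighbours on chromosome 19 and single marker genes were named after their values were seen. The code for fold counting was run on simulated arrays with large changes in bright genes. That run does not test calls near 2-fold or of dim genes. Promoter windows came from RefSeq, build GRCm38.p6, aligned with Biopython 1.88. The 8 alternatives were offsets of 1 and 72.5 (40th percentile), quantile normalisation, median centring, no filter, a 75th percentile filter, averaging all probe sets per gene, and a 1.5-fold threshold.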

Additional observations from a re-analysis of the deposited data

Results flagged for a closer look

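For several genes the arms of a factor differed in sign. Each arm is a single pair of arrays, so none of these differences between arms was tested, and the value is the same for both factors by construction (log2 units). Aldh1a2 was -0.19 and 0.86 apart with diabetes in the sham and the uninephrectomy arm, a difference of 1.05. Rbp4 had a difference of 0.63 and opposed signs for both factors. Rdh10 had 0.53 by its brighter probe set and 0.20 by the other.

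Of the other genes named, positive differences between arms were 1.93 for Aldh18a1, whose second expressed probe set has no opposed arms, 1.05 for Stra6l, 1.01 for Anxa1, 0.40 for Fabp5 and 0.12 for Zfand5. Negative ones were -1.24 for Cyp26b1, -1.13 for Rxra, -1.11 for Ces1d, -0.54 for Dhrs3, -0.37 for Aldh2 and -0.28 for Aldh8a1. Fabp5, Rxra, Aldh2 and Aldh8a1 have 2, 3, 5 and 2 probe sets. Only the brightest of each is given, and the others may differ. The hybridisation spikes read 1.23-fold and 1.24-fold of the nondiabetic sham array with either condition alone and 0.918-fold with both, and their part in these differences was not tested.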

How the results depend on the processing

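No paired analysis was possible because each group has 1 array and the labels give no replicate numbers. The log2 differences of the 5 expressed members were recomputed under 5 alternatives (100 values). None changed sign, 94 stayed on their side of 2-fold, and 6 crossed it. The 94 include values that could not move, since averaging probe sets leaves a gene with 1 probe set unchanged. Aldh1a1, Aldh1a2, Aldh1a7 and Rbp4 each have 1 probe set. Aldh1a1 with diabetes after uninephrectomy was 0.99 with the 40th percentile offset and 0.97 with quantile normalisation, and with uninephrectomy in nondiabetic mice it was 1.03 with an offset of 1 and 1.04 with quantile normalisation. Aldh1a7 with uninephrectomy in nondiabetic mice was 0.93 with the 40th percentile offset and 0.89 with median centring. Median centring shifts the median of all expressed genes by up to 0.129. Over these alternatives Aldh1a1 kept differences between 0.86 and 1.15 and Aldh1a7 between 0.89 and 2.02.

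The number of members past 2-fold with diabetes after uninephrectomy was 1 with the 40th percentile offset and with quantile normalisation, against 2. With uninephrectomy in nondiabetic mice it was 0 with the 40th percentile offset and with median centring and 2 with an offset of 1, quantile normalisation, no filter or a 1.5-fold threshold, against 1. With uninephrectomy in diabetic mice it was 4 without the filter and 1 with the 75th percentile filter, against 2. Counts of pathway genes past 2-fold, which are small, moved most. With diabetes in sham mice there were 1 with the 40th percentile offset, median centring or the 75th percentile filter, 5 without the filter and 5 at 1.5-fold, against 2. With diabetes after uninephrectomy there were 1 with median centring, the 75th percentile filter or the mean of probe sets, 7 without the filter and 10 at 1.5-fold, against 2. With uninephrectomy in nondiabetic mice there were 1 with an offset of 1, quantile normalisation or median centring, 4 without the filter and 5 at 1.5-fold, against 0. With uninephrectomy in diabetic mice there were 0 with the 40th percentile offset or the 75th percentile filter, 6 without the filter and 7 at 1.5-fold, against 3. Without the filter and at 1.5-fold more genes can pass by construction, and for the other settings the cause was not tested. Dim genes such as Stra6, Aldh1a3 and Crabp2 have no reliable difference on single arrays.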
